A study of Rattus norvegicus with 49 samples.

Results

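S100 proteins are small proteins with a pair of calcium-binding EF-hand loops. When calcium rises inside a cell, an S100 dimer opens a surface that grips other proteins, among them annexins, cytoskeletal motors and ion channels. Several S100 proteins are also secreted and bind the cell-surface receptors RAGE (gene Ager) and TLR4, through which they are known to drive inflammatory signalling. In the brain, S100B is a classic astrocyte protein that is also made by oligodendrocytes, while S100A8 and S100A9 form calprotectin, the main calcium-binding complex of neutrophils.

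The 7 genes described here are S100a1, S100a4, S100a6, S100a8, S100a9, S100a10 and S100b of the rat. They were chosen by the gene symbol that the platform annotation gives to a probe set, and each had 1 probe set. They are 7 of the 10411 genes that carried a single symbol on the array. All 7 are accounted for below: 5 reached the signal needed for testing, and S100a8 and S100a9 did not. The annotation names 8 other S100 genes, which serve as the family background further on.

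The tissue was the CA1 region dissected from the left hippocampus of Fisher 344 rats, with 1 Affymetrix RAE 230A array per animal and 49 arrays in all. There were 9 rats at each of 3, 6, 9 and 12 months and 13 rats at 23 months, where aged animals in poor health had been removed. The labels name no other difference between the groups than age. Rats of every age had first been trained and tested in the Morris water maze, a spatial memory task, so no group stands for maze-naive animals. Values are MAS5 signals, a linear measure of probe brightness that the authors scaled to a common target of 500 on every array. Signals of different probe sets cannot be ranked against each other as amounts of RNA. Signal levels are therefore compared only within a gene across ages, and pairs of genes only by their changes in signal.

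The dissection can be checked against marker genes. Wfs1, a marker of CA1 pyramidal cells, had signals between 4123 and 6707.1 over all arrays. Prox1, a marker of dentate granule cells, had signals between 274.1 and 1073.2, with a spread of that size among the 3-month rats alone. Transthyretin (Ttr), made by the choroid plexus, was high in 5 arrays (3908 to 16310), namely 3-month replicates 4, 6, 7 and 8 and 23-month replicate 11. The haemoglobin gene Hbb, which marks red blood cells, was high in 23-month replicates 8 (4388) and 5 (659). Where leaving these arrays out changed a call, both results are given below. Ranges of the members over all alternatives at 23 against 3 months are in the closing section. Array medians lay between 208 and 224.9 after the scaling to a common target, which by itself brings the arrays close in overall brightness. Precision is set by the 9 or 13 arrays of an age.

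The S100a genes lie in a cluster on chromosome 2 and S100b lies alone on chromosome 20. By gene order in the RefSeq annotation of assembly GRCr8, S100a4 sits between S100a3 and S100a5, S100a6 follows S100a5, S100a8 is next to S100a9, S100a1 is next to S100a13 and S100a10 follows S100a11. S100b lies between Dip2a and Prmt2. The 3 genes whose signal differed between old and young rats therefore come from both loci, and S100a4 and S100a6 are close neighbours.

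The 250 bases before the start of each of these 3 genes are shown because the promoters are what the neighbouring pair and the distant S100b could share or differ in. The sequences are from RefSeq (GRCr8), at chr2:178388279-178388528 on the plus strand for S100a4, chr2:178398287-178398536 on the plus strand for S100a6 and chr20:12381082-12381331 on the minus strand for S100b. Capitals mark matches to TATAAA (the TATA box) and GGGCGG (the GC box), searched on both strands. An AP-1 site, searched as TGANTCA, was in none of the 3.
S100a4: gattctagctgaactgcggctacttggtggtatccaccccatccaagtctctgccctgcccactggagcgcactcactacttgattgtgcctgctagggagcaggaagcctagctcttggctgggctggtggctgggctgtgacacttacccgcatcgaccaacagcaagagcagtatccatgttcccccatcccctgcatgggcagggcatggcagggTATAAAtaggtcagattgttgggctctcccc
S100a6: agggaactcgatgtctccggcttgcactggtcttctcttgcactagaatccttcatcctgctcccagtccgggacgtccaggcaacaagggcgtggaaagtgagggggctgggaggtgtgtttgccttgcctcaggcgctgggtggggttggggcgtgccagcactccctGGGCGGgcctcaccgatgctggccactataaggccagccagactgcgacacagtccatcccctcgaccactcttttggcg
S100b: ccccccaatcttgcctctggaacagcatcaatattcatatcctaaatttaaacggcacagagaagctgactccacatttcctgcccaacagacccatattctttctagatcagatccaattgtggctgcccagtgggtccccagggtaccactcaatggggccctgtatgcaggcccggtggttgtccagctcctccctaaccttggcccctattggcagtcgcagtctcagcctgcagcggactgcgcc

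The S100a4 window holds a TATA box that begins at position -31 from the start. The S100a6 window holds a GC box at position -80 and no TATAAA, and the S100b window holds none of the 3 motifs. Among the 33469 RefSeq windows of this length, 12.9% hold TATAAA, 30.5% hold GGGCGG and 6.34% hold TGANTCA, so both matches are to common motifs. They are matches of letters and were not tested as sites. Only 4 of the 7 genes have a promoter entry in the reference used. The gene among them that is not printed, S100a9, was too dim to test. Its window holds TATAAA at position -42 and neither of the other motifs.

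The study compared CA1 tissue across the adult life of the rat, and the widest comparison is of 23-month with 3-month rats. S100a4, S100a6 and S100b rose in old rats, by 1.72-fold, 1.75-fold and 1.17-fold, and S100a1 and S100a10 did not pass the test. These are 3 of 5 tested S100 genes, against 2.41% of the 8093 genes tested that rose, 0.853% that fell and 3.26% that were called in either direction. The members were chosen with earlier results of these data known, so such shares, here and below, are no test of the family. The test was limma's moderated test, fitted to all 49 arrays together and adjusted over the 8093 genes by the Benjamini-Hochberg method. Calls here and in the comparisons that follow need an adjusted p under 0.05. The animals are separate, so its p-values measure the spread between animals. The tissue is a bulk sample, in which more cells of a type and more RNA per cell cannot be told apart.

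S100a4, also called metastasin, binds non-muscle myosin and is known for its part in cell motility. Its signal at 3 months was 211.3 at the lowest, 295.5 at the median and 364.7 at the highest of 9 rats. At 6 months it ran between 192.9 and 408.7 with a median of 309.7, and at 9 months between 251.7 and 406.3 with a median of 299.5. The first 3 ages thus covered much the same range. At 12 months the lowest, median and highest signals were 287.5, 369.6 and 644.2. At 23 months they were 354.2, 507.8 and 740.9. The 12-month rats were the most uneven: 6 of 9 lay above every 3-month rat, and replicates 4 and 5, at 644.2 and 520.1, were the highest of their age. Of the 13 old rats, 12 lay above every 3-month rat and all 13 lay above the 3-month mean, so the groups overlapped by a single old animal.

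S100a4 averaged 518 ± 99.3 at 23 months and 298 ± 41.2 at 3 months (SD, n = 13 and 9). The log2 difference was 0.79 with a standard error of 0.12 and a 95% interval of 0.55 to 1.02 (limma, adjusted p = 3.56e-06), and S100a4 ranked 30 of the 8093 genes by p. In order of mean signal the ages ran 3, 9, 6, 12 and 23 months. The first 3 of these differed by less than their spread. The step at 12 against 3 months was 0.41 on the log2 scale (limma, adjusted p = 0.222), and the step at 23 against 12 months was 0.38 (limma, adjusted p = 0.244). The change after 12 months was called when 12-month replicate 4, the highest of its age, was left out (0.46, adjusted p = 0.0454), while it lay between 0.217 and 0.589 under the other processing alternatives.

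S100a6, or calcyclin, binds annexins and the ubiquitin ligase partner CacyBP and is known from astrocytes and growing cells. Its lowest, median and highest signals were 89.5, 145.2 and 191.6 at 3 months. They were 108.9, 163.3 and 194.4 at 6 months and 119.4, 162.7 and 247.5 at 9 months. They were 129.6, 208.7 and 262.4 at 12 months and 170.4, 224.2 and 372.1 at 23 months. The mean was higher at each later age, although the 9-month median was no higher than the 6-month one. All 13 old rats lay above the 3-month mean and 10 lay above every 3-month rat.

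S100a6 averaged 241 ± 61.8 at 23 months and 138 ± 32.9 at 3 months (SD, n = 13 and 9). The log2 difference was 0.81 ± 0.14 (SE), with a 95% interval of 0.54 to 1.08 (limma, adjusted p = 3.98e-05). Differences from 3 months were 0.17 at 6 months, 0.33 at 9 months and 0.56 at 12 months on the log2 scale. The last of these had an adjusted p of 0.0776 by limma and did not pass. It passed without the 2 arrays of high haemoglobin signal (adjusted p = 0.0416), and also without 3-month replicate 8 (0.0422) or without 12-month replicate 1 (0.0291), while over all processing alternatives it lay between 0.0311 and 0.277. Neighbouring ages overlapped, and 23 against 12 months gave 0.24 (limma, adjusted p = 0.666). The 2 highest old signals, 372.1 and 348.9, came from the 2 old arrays with high Hbb. Without those arrays the difference at 23 against 3 months was 0.70 (adjusted p = 3.34e-04), and without the 5 arrays of high transthyretin it was 0.93 (adjusted p = 2.02e-04).

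S100b encodes the astrocyte protein S100B, which binds tubulin, GFAP and p53 inside cells and RAGE outside them. Its signals were among the bright ones of the array, with a lowest, median and highest of 10130.8, 10883.3 and 12038.9 at 3 months. The corresponding signals were 10504, 11591.1 and 12584.9 at 6 months and 10922.5, 11447.3 and 12999 at 9 months. They were 10048.9, 12113.9 and 13143.7 at 12 months and 9660.6, 12992 and 14763.4 at 23 months. The old group was both higher and wider than the young one. Of 13 old rats, 11 lay above every 3-month rat, while 23-month replicate 11, one of the arrays with high transthyretin, lay below all of them.

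S100b averaged 12821 ± 1273 at 23 months and 10957.5 ± 696 at 3 months (SD, n = 13 and 9). The log2 difference was small and tight, 0.22 ± 0.048 (SE), with a 95% interval of 0.13 to 0.32 (limma, adjusted p = 0.0019). At 12 against 3 months it was 0.13 (adjusted p = 0.487) and at 23 against 12 months 0.092 (adjusted p = 0.626). S100b moved with the brightness of the brightest genes on an array: its correlation with the mean log2 signal of the brightest 1% of genes (81 genes), with age means removed, was 0.79 over 49 arrays. That mean was 13.29 at 23 months and 13.23 at 3 months. S100b also had a correlation of 0.45 with the log2 ratio of 3-prime to 5-prime GAPDH signal, a measure of RNA quality, which averaged 0.31 at 23 months and 0.26 at 3 months. The same ratio for actin averaged 0.93 at 23 months and 0.82 at 3 months, and its correlation with S100b was 0.27. The part of brightness and RNA quality in the rise of S100b was not tested further than by the scaling that follows. Quantile normalization, which makes the distribution alike on all arrays, gave S100b a difference of 0.16 (adjusted p = 2.68e-04). The correlation with the brightest genes was 0.016 for S100a4 and 0.032 for S100a6. With the GAPDH ratio it was 0.30 for S100a4 and 0.12 for S100a6, and with the actin ratio 0.097 and 0.042. The part of RNA quality in the rise of these 2 genes was not tested.

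**Figure D1:**
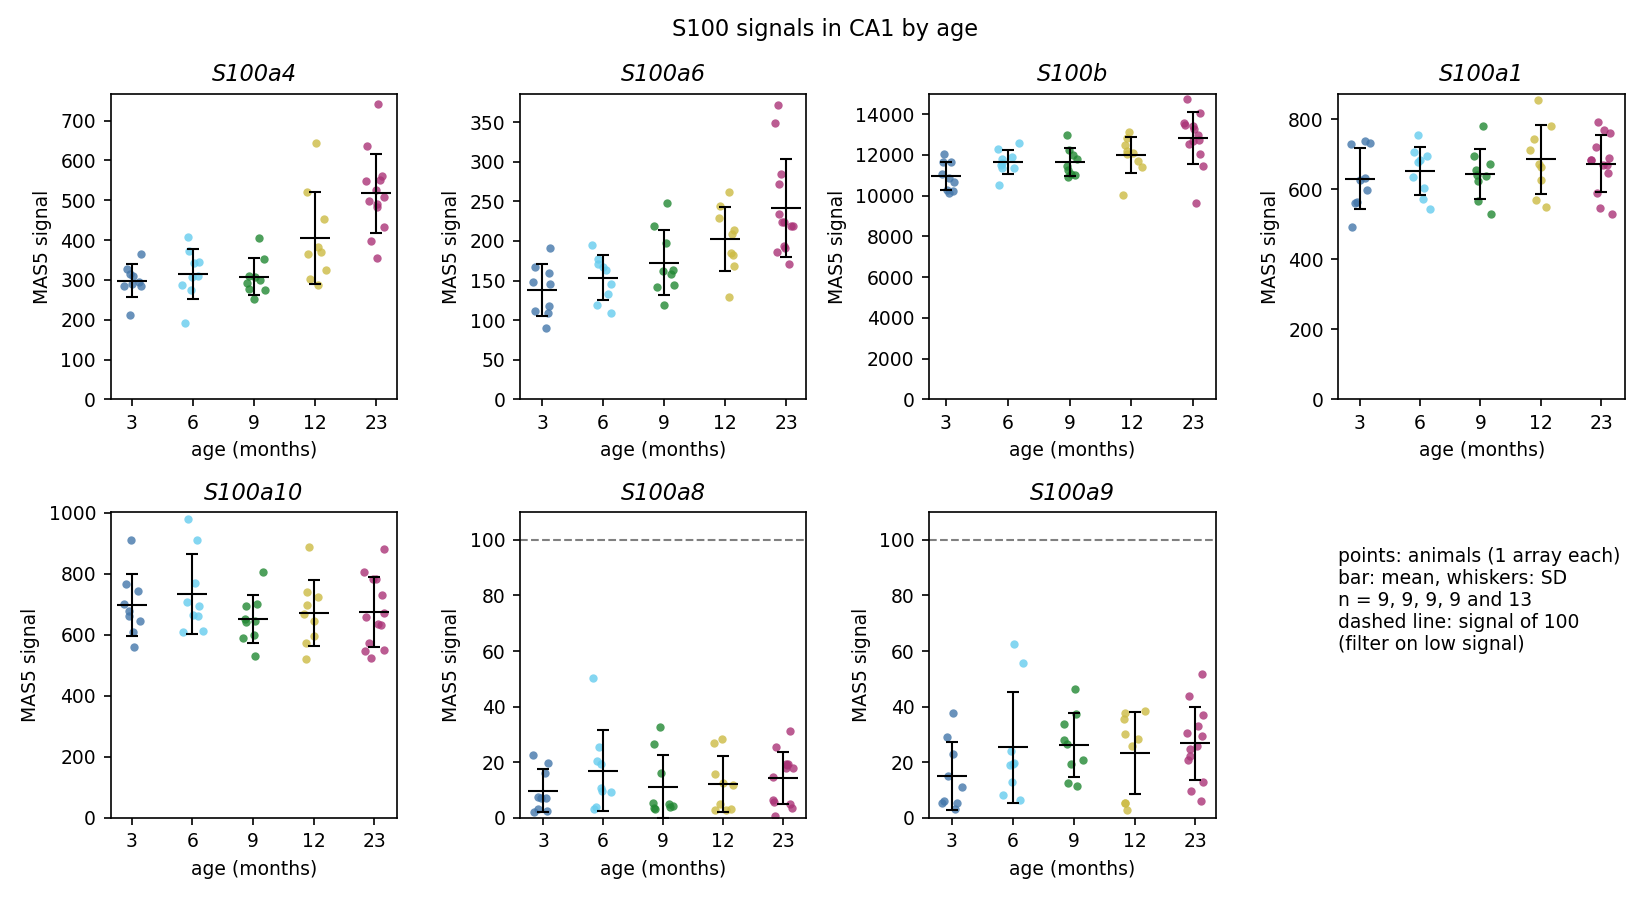
MAS5 signal (vertical axes, linear) of each of the 7 S100 genes by age in months, with 1 point per rat (9 per age at 3, 6, 9 and 12 months, 13 at 23 months) and the mean and SD of each age. S100a4, S100a6 and S100b are higher at 23 than at 3 months, S100a1 and S100a10 show no ordered shift, and S100a8 and S100a9 reach at most 50.2 and 62.5.

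S100a1 is best known from heart muscle, where it acts on the calcium-release channel and the calcium pump of the sarcoplasmic reticulum, and in brain it binds synapsins. Its signal ran between 528.5 and 793.1 with a median of 684 at 23 months, against 492.6 to 738.5 with a median of 626.7 at 3 months. The groups lay over each other for most of their range. The means were 673 ± 81.0 at 23 months and 630.3 ± 87.4 at 3 months (SD, n = 13 and 9). The log2 difference was 0.097, with a 95% interval of -0.057 to 0.25 (limma, adjusted p = 0.616), which leaves room for a rise of the size of that of S100b. Without the 5 arrays of high transthyretin the difference was 0.16 (limma, adjusted p = 0.523).

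S100a10, also called p11, differs from the rest of the family in that it no longer needs calcium to be active. It pairs with annexin A2 and helps to carry serotonin receptors and ion channels to the cell surface. Its signal ran between 523.3 and 881.3 with a median of 657 at 23 months, against 561.3 to 912.2 with a median of 677 at 3 months. The means were 675 ± 114 at 23 months and 697 ± 102 at 3 months (SD, n = 13 and 9), and 8 of 13 old rats lay below the 3-month mean. The log2 difference was -0.053, with a 95% interval of -0.24 to 0.13 (limma, adjusted p = 0.862). That interval lies wholly below those of S100a4 and S100a6. Without the 7 arrays of high transthyretin or haemoglobin signal the difference was -0.097 (limma, adjusted p = 0.833).

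S100a8 and S100a9, the calprotectin subunits, stayed near the bottom of the scale at every age. The highest signal of any rat was 50.2 for S100a8 and 62.5 for S100a9, against the 100 on 5 arrays asked of a tested gene. S100a8 averaged 14.3 ± 9.27 at 23 months and 9.77 ± 7.76 at 3 months, and S100a9 averaged 26.7 ± 13.0 at 23 months and 15.1 ± 12.2 at 3 months (SD, n = 13 and 9). The SD was 64.7% to 102% of the mean for S100a8 and 44.1% to 81.1% for S100a9 over the 5 ages. S100a8 fell under the floor of 16, below which signals were not told apart, on 30 of the 49 arrays and S100a9 on 17. In a fit of all 10411 genes without the signal filter, the log2 differences at 23 against 3 months were 0.12 for S100a8 (limma, adjusted p = 0.836) and 0.43 for S100a9 (limma, adjusted p = 0.487). A change in these genes was not detectable at such signals. On the old array with the highest Hbb, S100a8 and S100a9 had signals of 5.8 and 33.1.

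The intermediate ages were set against the same 3-month rats, so these comparisons share their controls. None of the 5 tested S100 genes was called at 12 against 3 months, where 0.222% of all genes were called by limma. At an unadjusted p under 0.05, 3 of them (S100a4, S100a6 and S100b) were higher at 12 months, and plain two-sample tests called 0 after adjustment and 3 before it. At 9 against 3 months limma called 0 of 5 against 0.0371% of all genes, with S100a6 alone at an unadjusted p under 0.05. The plain tests there gave 0 calls and 1 unadjusted, which was S100b and not S100a6. At 6 against 3 months limma called 0 of 5 against 0.0124% of all genes, with 0 at an unadjusted p under 0.05, and the plain tests gave 0 calls and 1 unadjusted (S100b). At 23 against 12 months limma called 0 of 5 against 0.358% of all genes, with S100a4 alone at an unadjusted p under 0.05, and the plain tests gave 0 calls and the same 1 gene unadjusted. S100a6 thus had the larger differences at 9 and 12 months and S100a4 most of its difference after 9 months, but no test showed that their courses differ.

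**Figure D2:**
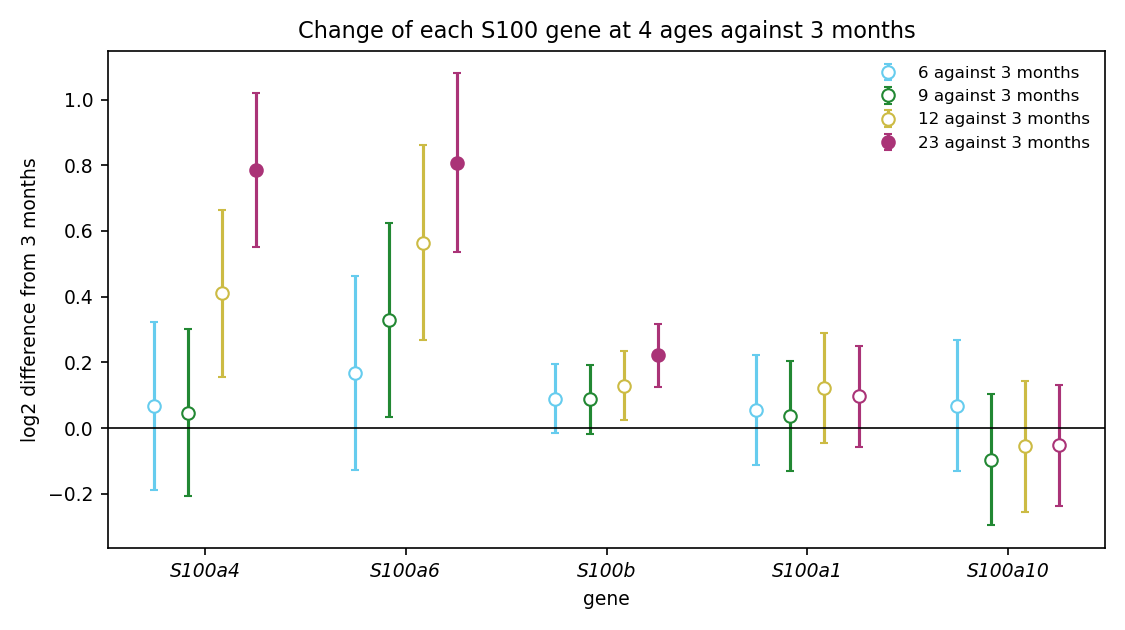
Difference of the mean log2 signal from 3 months (vertical axis) for each tested S100 gene at 6, 9, 12 and 23 months, with bars for the 95% interval of the limma fit. The intervals of S100a4, S100a6 and S100b exclude 0 at 23 months, while those of S100a1 and S100a10 include it at all 4 ages.

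The F-test over the 5 ages, which asks whether any age differs, called 3 of the 5 genes, against 1.88% of all genes. Adjusted p-values by limma were 1.33e-06 for S100a4, 2.11e-04 for S100a6 and 0.0361 for S100b, against 0.973 for S100a1 and 0.957 for S100a10. The S100b call in this test was the weakest: it was lost with each array centred on its median (adjusted p = 0.215) and without the 2 arrays of high haemoglobin signal (0.0941). A straight line in months fitted to all arrays called the same 3 genes, against 5.12% of all genes in either direction and 3.47% that rose. Its slope, scaled to the 20 months of the design, was 0.84 on the log2 scale for S100a4 (adjusted p = 2.99e-08), 0.78 for S100a6 (4.60e-06) and 0.20 for S100b (0.00107). For S100a1 and S100a10 the slopes per month were 0.0041 and -0.0034 (adjusted p = 0.582 and 0.740).

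Whether the S100 signals changed by different amounts was tested on the log2 ratio of each pair within an animal. Two-sided permutation tests of 23 against 3 months were run over 10 pairs, with Benjamini-Hochberg adjustment. Of the 10 pairs, 7 differed. S100a4 rose relative to S100a10 by 0.84 (permutation test, adjusted p = 2.00e-04; 13 of 13 old rats above the 3-month mean ratio) and relative to S100b by 0.56 (permutation test, adjusted p = 8.40e-04; 12 of 13). S100a6 rose relative to S100a10 by 0.86 (permutation test, adjusted p = 5.50e-04; 13 of 13) and relative to S100b by 0.59 (permutation test, adjusted p = 0.00197; 13 of 13). The ratios of S100a1 to S100a4 and of S100a1 to S100a6 fell by 0.69 and 0.71 (permutation test, adjusted p = 2.00e-04 for both; 13 of 13). The changes in signal among the S100 genes were therefore unequal, and the larger ones were those of S100a4 and S100a6. Each gene was read by a different probe set, so whether the amounts of RNA changed unequally was not tested.

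S100a4 and S100a6 themselves moved by amounts that could not be told apart: their log2 ratio differed by -0.022 between 23 and 3 months (permutation test, adjusted p = 0.915). The ratio of S100a10 to S100b fell by 0.27 (permutation test, adjusted p = 0.0259; 10 of 13 old rats below the 3-month mean ratio), and that call was lost after quantile normalization (-0.20, adjusted p = 0.0997). The remaining pairs, S100a1 with S100a10 and with S100b, gave 0.15 and -0.12 (permutation test, adjusted p = 0.283 and 0.107).

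A shared rise with age does not show that animals of one age carry both genes high. With the mean of each age removed, S100a4 and S100a6 had a Pearson r of 0.080 and a Spearman rho of 0.17 over the 49 rats (permutation test within ages, adjusted p = 0.870 and 0.632 over 10 pairs of members). Leaving out the 2 arrays farthest from the median of S100a4 gave an r of 0.18. Within an age, then, a rat with a high S100a4 signal was not shown to have a high S100a6 signal. The old rat highest in S100a4 (replicate 3, at 740.9) was not one of the 2 highest in S100a6.

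**Figure D3:**
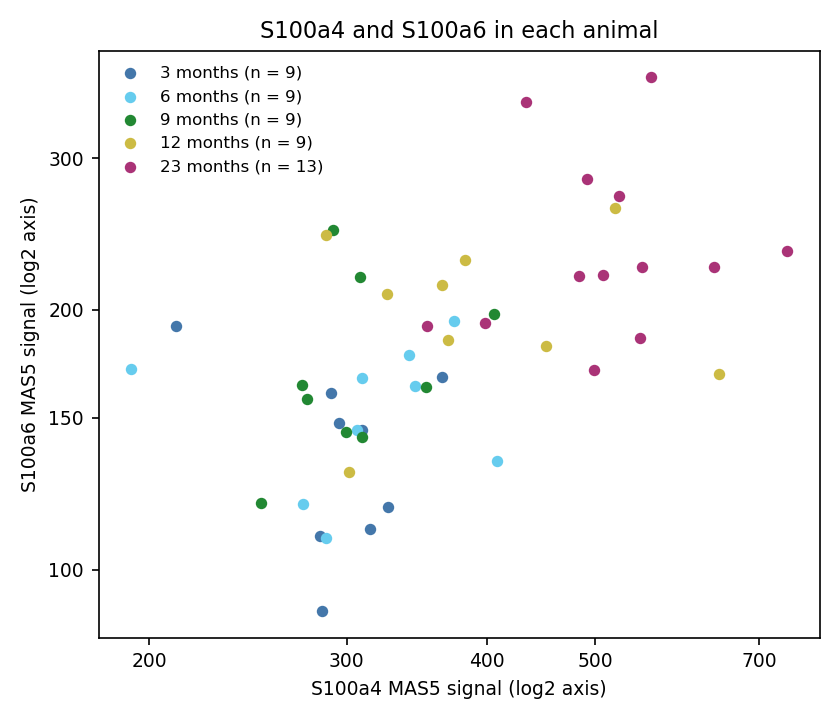
S100a6 signal (vertical log2 axis) against S100a4 signal (horizontal log2 axis) in each of the 49 rats, coloured by age. The 23-month rats lie to the upper right of the 3-month rats, while with age means removed the correlation is 0.080.

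The one pair that passed was S100a1 with S100b, with a Pearson r of 0.47 (permutation test, adjusted p = 0.0105) and a Spearman rho of 0.48 (adjusted p = 0.0100). The r was 0.42 without the 2 farthest arrays. Without the 5 arrays of high transthyretin it was 0.45 and no longer passed (permutation test, adjusted p = 0.0554). S100a4 with S100a10 gave an r of 0.33 (permutation test, adjusted p = 0.153).

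Markers of the cell types in the dissected tissue show which RNA varied with each gene among rats of the same age. For each tested S100 gene, 10 marker lists were compared, which makes 50 correlations with age means removed, and 9 of them passed by Pearson r. S100b went with astrocyte markers (r = 0.52, rho = 0.57; permutation test, adjusted p = 0.00617 and 0.00225; r = 0.50 without the 2 farthest arrays). It also went with oligodendrocyte and myelin markers (r = 0.55, rho = 0.61; permutation test, adjusted p = 0.00617 and 0.00225; r = 0.54). After quantile normalization the correlation with oligodendrocyte markers no longer passed (0.42, adjusted p = 0.0649). S100b was further related to markers of CA1 pyramidal cells (r = 0.41, adjusted p = 0.0248 by permutation). That r was 0.31 after quantile normalization (adjusted p = 0.110 by permutation) and 0.28 without the 2 farthest arrays. S100b was inversely related to markers of dentate granule cells (r = -0.40, adjusted p = 0.0367 by permutation). There the r was -0.38 after quantile normalization (adjusted p = 0.0655 by permutation) and -0.45 without the 2 farthest arrays.

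S100a10 followed the markers of CA1 pyramidal cells (r = 0.56, rho = 0.46; permutation test, adjusted p = 0.0050 and 0.0245; r = 0.51 without the 2 farthest arrays). It ran opposite to those of dentate granule cells (r = -0.43, rho = -0.42; permutation test, adjusted p = 0.0212 and 0.0289; r = -0.40). With oligodendrocyte markers its r was 0.42 and its rho 0.38 (permutation test, adjusted p = 0.0296 and 0.0508), and the r had an adjusted p of 0.0534 after quantile normalization. S100a1 was related to oligodendrocyte markers (r = 0.47) and astrocyte markers (r = 0.45), both with an adjusted p of 0.0212 by permutation, and the astrocyte correlation did not pass after quantile normalization (0.39, adjusted p = 0.0649) or without the 5 arrays of high transthyretin (0.40, adjusted p = 0.0764). Without the 2 farthest arrays the r of S100a1 was 0.38 with oligodendrocyte markers and 0.37 with astrocyte markers. Differences in how much CA1, dentate or white matter each dissection held were not tested as a source of the relations of S100b, S100a10 and S100a1. Nor was the brightness of the brightest 1% of genes on an array. Its correlation with age means removed was 0.79 for S100b, 0.32 for S100a1 and 0.22 for S100a10.

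For S100a4 and S100a6 no list passed by Pearson r, and 1 list passed by rank. S100a4 with CA1 markers had an r of 0.38 and a rho of 0.39 (permutation test, adjusted p = 0.0543 and 0.0429; r = 0.29 without the 2 farthest arrays). Its r was 0.37 with oligodendrocyte markers and 0.27 with microglial markers (permutation test, adjusted p = 0.0725 and 0.222). S100a6 had an r of 0.36 with red blood cell markers (permutation test, adjusted p = 0.0725), which was 0.13 without the 2 farthest arrays and therefore rests on those. With CA1 markers the r of S100a6 was -0.33 (permutation test, adjusted p = 0.0946), opposite in sign to that of S100a4. Its r was -0.20 with microglial markers and 0.11 with astrocyte markers (permutation test, adjusted p = 0.387 and 0.679).

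**Figure D4:**
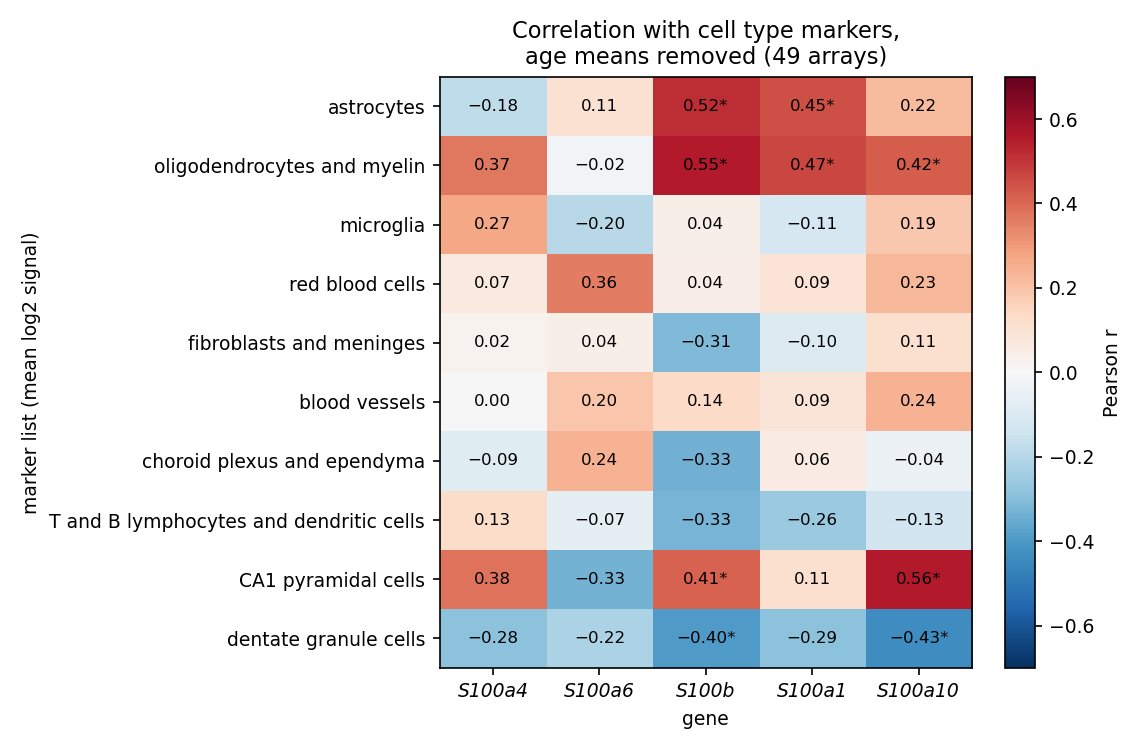
Pearson r (colour) of each tested S100 gene (columns) with the mean log2 signal of each of 10 marker lists (rows) over 49 arrays, with the mean of each age removed. S100b is positive with astrocyte (0.52) and oligodendrocyte markers (0.55), S100a10 with CA1 pyramidal cell markers (0.56), and S100a4 and S100a6 have no Pearson r that passed.

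Markers of microglia differed with age beside the S100 genes, and fewer markers of other cells did. Of the 14 tested microglial markers, 12 rose at 23 against 3 months with a median log2 difference of 0.55 over the list, against a median of 0.00082 over all genes. Among them were Fcer1g (0.77), Cd53 (0.86) and Laptm5 (0.62). The summed signal of the list ran between 10730 and 17741 at 23 months and between 8275 and 9727 at 3 months. That sum weighs bright genes most. Its brightest gene, Ctss, ran between 4604 and 6594 at 23 months and between 3429 and 4425 at 3 months. Single genes of the list could overlap, as did Cx3cr1 (204 to 379 against 159 to 332) and Itgam (45.7 to 149 against 72.4 to 152). Of the 12 astrocyte markers, 2 rose: Gfap, the intermediate filament of reactive astrocytes (0.40; limma, adjusted p = 2.79e-06), and the glutamate transporter Slc1a3 (0.19; limma, adjusted p = 0.00387). The astrocyte sum ran between 44159 and 52582 at 23 months and between 40759 and 48630 at 3 months, and the list's median difference was 0.058. Of 4 tested genes on the lymphocyte and dendritic cell list, the class II genes RT1-Da and Cd74 rose (1.97 and 1.65). Cd3e and Cd4 were not called by limma. Cd3e averaged 103 at 23 months and 109 at 3 months, and Cd4 averaged 106 and 84.3. The lymphocyte genes Cd3g, Cd3d, Cd8a, Cd2 and Cd79b were too dim to test. Which cells carried the class II signal was not tested. The part of these cell types in the rise of S100a4, S100a6 and S100b was not tested.

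In the other lists few markers were called. Of 11 oligodendrocyte markers, Ugt8 fell (-0.28; limma, adjusted p = 0.0278), of 10 vessel markers Abcb1a rose (0.49; limma, adjusted p = 0.0285), and of 9 CA1 markers Pou3f1 fell (-0.32; limma, adjusted p = 0.0144). Each of these 3 calls was lost under at least 1 alternative. None of the 9 fibroblast and meningeal markers, 5 choroid plexus markers, 5 dentate markers or 3 red blood cell markers was called by limma. The red blood cell sum ran between 78.5 and 4741 at 23 months and between 188 and 344 at 3 months. Of the neutrophil list 1 gene was bright enough to test, and Lcn2 and Cxcr2 reached at most 67.9 and 48.9 on any array.

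The partners and relatives of the S100 proteins were described by lists that were chosen with earlier results of these data known. Among the other S100 genes, 4 of 8 were tested and 1 rose. S100a13, which helps growth factors and cytokines without a signal peptide out of the cell, averaged 1697 ± 128 at 23 months and 1506 ± 149 at 3 months (SD, n = 13 and 9), a 1.13-fold difference (limma, adjusted p = 0.0332). This call did not hold with median centring of the arrays (0.105) or without the 2 arrays of high haemoglobin signal (0.0998). The 4 tested genes had a median log2 difference of 0.21.

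Annexins bind membranes in the presence of calcium and are the main partners of several S100 proteins. Of 7 tested annexins, 3 rose and none fell (Ahnak, also on this list, is not analysed here), with a median log2 difference of 0.20. Anxa3 averaged 1595 ± 192 at 23 months and 1094 ± 122 at 3 months (SD, n = 13 and 9), a 1.46-fold rise (limma, adjusted p = 1.04e-09), and it rose at 23 against 12 months (0.29; limma, adjusted p = 0.00663). At 12 against 3 months its difference was 0.26 and did not pass (limma, adjusted p = 0.0692). Anxa5 averaged 1327 ± 81.1 at 23 months and 1080 ± 77.8 at 3 months (SD, n = 13 and 9), a 1.23-fold rise (limma, adjusted p = 3.81e-06). It was already up at 12 against 3 months (0.25; limma, adjusted p = 0.00426). Anxa4 averaged 425 ± 56.1 at 23 months and 332 ± 60.6 at 3 months (SD, n = 13 and 9), a 1.29-fold rise (limma, adjusted p = 0.00251). Anxa2, named here as the partner of S100a10 and outside the naming rule, had a difference of 0.20 (limma, adjusted p = 0.527), with 519.5 as its highest old signal and 266.8 as its highest young one.

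Of the receptors and signalling genes that answer secreted S100 proteins, none of 5 tested was called by limma at 23 against 3 months, and the list's median log2 difference was 0.14. The 2 of smallest p were Nfkbia, the inhibitor of NF-kB (0.26, adjusted p = 0.478), and Nfkb1 (0.14, adjusted p = 0.488). The receptor genes themselves were too dim to test: Ager reached at most 41.4, Cd36 28.9, Cd14 95.6 and Tlr4 115.6 on any array. Whether these receptor genes changed with age was thus not measurable here.

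Of 17 tested intracellular targets, 1 rose and none fell, with a median log2 difference of 0.031. It was Cyba, the p22phox subunit of the NADPH oxidase that calprotectin binds in phagocytes. Cyba averaged 349 ± 41.8 at 23 months and 275 ± 12.4 at 3 months (SD, n = 13 and 9), a 1.26-fold rise (limma, adjusted p = 4.66e-05). It also rose between 12 and 23 months (0.31; limma, adjusted p = 0.00145). Of 15 other EF-hand genes, 1 rose and none fell, with a median of -0.030. It was Aif1, the actin-binding protein IBA1, which is also on the microglial list. Aif1 averaged 298 ± 64.1 at 23 months and 197 ± 14.7 at 3 months (SD, n = 13 and 9), a 1.49-fold rise (limma, adjusted p = 5.40e-05), and it rose between 12 and 23 months (0.43; limma, adjusted p = 0.0248). The calmodulins, calbindin, hippocalcin and the other neuronal calcium sensors of that list were not called.

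**Figure D5:**
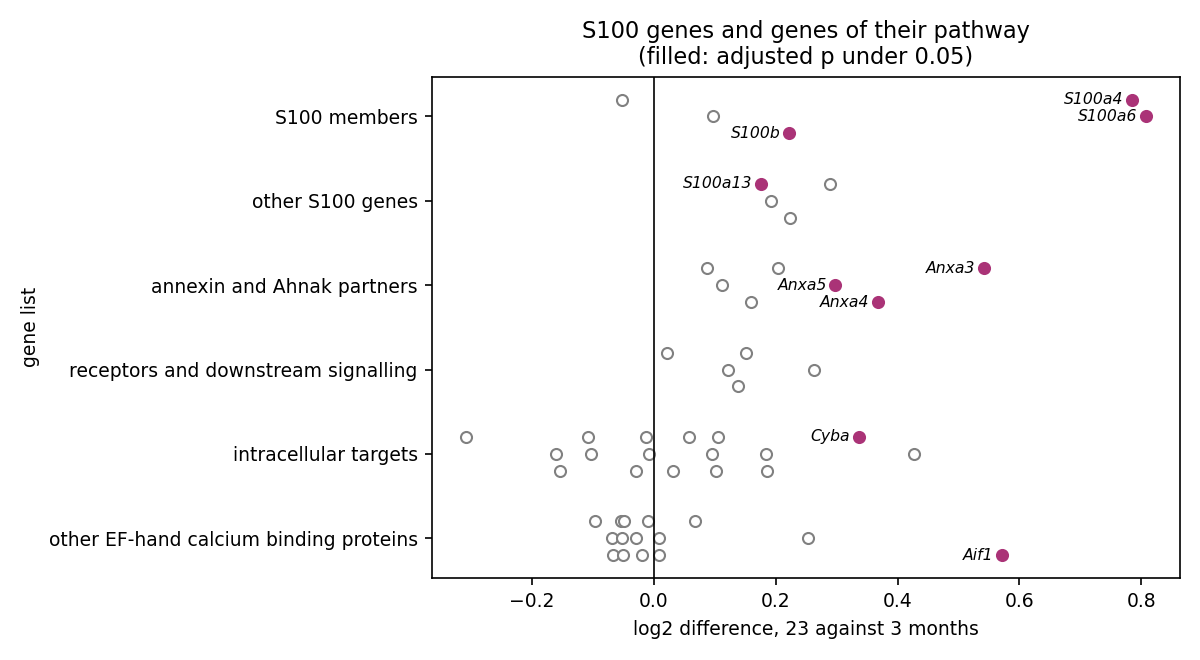
Log2 difference of 23 against 3 months (horizontal axis) for the tested S100 members and the tested genes of 5 lists of partners and relatives (rows), with 1 point per gene and filled points for an adjusted p under 0.05. Filled points number 3 of 5 among the members, 3 of 7 among annexins, 1 each among other S100 genes, intracellular targets and EF-hand genes, and 0 among receptors and signalling genes.

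For each tested S100 gene, the 3 genes of closest course among rats of one age were found by the highest Pearson r over 49 arrays with age means removed, among all 8093 genes. For S100a4 they were Atp1b3 (0.56), Gsn (0.55) and Rasd1 (0.54). For S100a6 they were Camk2d (0.69), Anxa4 (0.65) and Nnat (0.64). Anxa4 is also one of the 3 annexins that rose. For S100b they were Apoe (0.82), the mitochondrial gene COX2 (0.74) and the ribosomal protein gene Rpl3 (0.74), all read on arrays where S100b tracked the brightest genes. For S100a1 they were Nat8f3 (0.63), Pdzd4 (0.62) and Id3 (0.62), and for S100a10 they were Rasgrp1 (0.63), Man1a1 (0.62) and Cgref1 (0.61). Man1a1 is 1 of the 9 genes averaged in the CA1 list to which S100a10 was related, so it is no separate evidence of that relation. These are the highest values among all genes tested and are given as descriptions, with no test.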

How the data were processed

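The authors deposited linear array intensities computed with MAS5, per the submitters' processing notes. Per the design text, every array was brought to a target of 500 using all its probe sets. The MAS5 version is not given in the sources used here. The labels give the oldest group as 23 months and that age was used, although the design text is not uniform on it. The table holds 15923 probe sets, of which 12789 had 1 symbol in the platform annotation. Symbols were updated by Entrez ID through RefSeq (GRCr8), and each gene kept its probe set of highest mean log2 signal.

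Signals under 16 were set to 16, log2 was taken without further scaling, and genes reaching 100 on at least 5 arrays were tested (8093). Tests used R 4.3.3 and limma 3.58.1, with a mean per age and eBayes moderation along a variance trend, and were tested on simulated data. Correlations and member ratios used two-sided permutation tests of 100000 resamples (scipy 1.17.1).

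The genes named were set by rule: every member; genes of each pathway list called in the F-test or a contrast, otherwise the 2 of smallest p at 23 against 3 months; up to 3 called markers per list; and the 3 nearest genes per tested member. The members and lists were chosen with earlier results of these data known. Alternatives were other floors, filters, scalings, array weights, a replicate block, plain tests, fits of 2 ages alone, each array left out, and leaving out the arrays of high transthyretin or haemoglobin signal. Presence calls, scan dates and maze scores are not used here, and array batches were therefore not tested. All sample columns entered the fit (0 unused). Among 1176 pairs of arrays the smallest SD of the log2 difference was 0.24, so none held the same values.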

Additional observations from a re-analysis of the deposited data

Results flagged for a closer look

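S100a8 in 6-month replicate 3 had a signal of 50.2, while the next highest 6-month rat had 25.4, a gap of 0.528 of the group's whole range against a critical value of 0.493 for 9 samples. It was 1 of 28 groups of the 7 genes that were examined for a sample far from the others, and chance alone marks about 1 group in 20. Only groups of 9 were examined, so the 23-month groups of 13 rats were not screened in this way. The S100a8 signal of 50.2 lies under the 100 asked of a tested gene.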

How the results depend on the processing

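The differences of S100a4, S100a6 and S100b at 23 against 3 months stayed called under all alternatives run, at 0.73 to 0.81, 0.70 to 0.93 and 0.16 to 0.29 on the log2 scale, and with any 1 array left out, at 0.73 to 0.83, 0.73 to 0.87 and 0.20 to 0.26. The largest adjusted p among the alternatives was 9.90e-04, 0.00332 and 0.0410 for these genes. S100a1 (0.054 to 0.13) and S100a10 (-0.090 to -0.0025) were not called with any array left out. Under the other alternatives they were not called either, at 0.076 to 0.16 and -0.097 to -0.015. The number of genes called was 264, and 173 without the 5 arrays of high transthyretin, 149 without these and the 2 of high haemoglobin (an alternative chosen after seeing the data) and 215 to 289 with 1 array left out. Fewer samples entered those fits. The F-test call of S100b was lost without the signal filter (adjusted p = 0.0632), with median centring (0.215), without a variance trend (0.0641), in a plain analysis of variance (0.0503) and without the 2 arrays of high haemoglobin (0.0941), and it ran between 0.000508 and 0.0898 with 1 array left out; the cause was not tested. The S100a13 call was also lost with a fixed replicate block (0.110) and in fits of 2 ages alone (0.0941), that of Ugt8 without the arrays of high transthyretin (0.213), that of Abcb1a there too (0.128) and that of Pou3f1 without the arrays of high haemoglobin (0.0594). Same-numbered rats of different ages had a mean correlation of their deviations of 0.065 (range -0.13 to 0.36, 33 of 86 pairs over 0.1), against -0.0063 for other pairs (113 of 868 over 0.1). Same-numbered rats were thus somewhat more alike. The labels give the numbers no meaning, so they were not taken as pairs. The permutation tests of correlations and member ratios took rats of an age as interchangeable and were not rerun with the number. With the number as a random replicate block the differences were 0.78 for S100a4, 0.81 for S100a6 and 0.23 for S100b, and as a fixed replicate block 0.73, 0.81 and 0.29. Signal limits S100a8 and S100a9, for which a change of 0.93 on the log2 scale in S100a9 lies within the 95% interval.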
